A study of Mus musculus with 40 samples.

Results

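The 6 genes described here act in the synthesis of nitric oxide from the amino acid arginine, in the supply of its substrate and cofactor, or in the synthesis of polyamines. They are Nos2, Gch1, Slc7a2, Ass1, Asl and Odc1, and they were chosen by name from the 43430 genes of a count table. All 6 passed the filter on low counts that left 11853 genes for testing. Their RNA was measured by RNA-seq in bone marrow-derived macrophages (BMDMs, cells matured in a dish from marrow precursors with a growth factor) of 5 WT and 5 NDI1 mice. Every mouse carried Vav-iCre, a recombinase driven by a promoter of the blood cell lineages. NDI1 mice also carried, behind a stop cassette that the recombinase removes, the yeast NADH dehydrogenase NDI1, which oxidizes NADH in mitochondria and keeps working in the presence of piericidin A, which blocks the cell's own complex I. The labels give the strain as C57/Bl6 and the genotypes as VAV-Cre WT and VAV-Cre NDI1, while the study's methods describe a mixed C57Bl/6 J and N background, littermate controls, both sexes and young adult age. Cells of every mouse received no treatment, LPS alone (100 ng ml–1, 4 h), piericidin A alone (500 nM) or piericidin A followed after 30 min by LPS, so each of the 8 groups held 5 libraries, 1 for each mouse. LPS comes from the outer membrane of bacteria and activates macrophages. Comparing the genotypes asks which effects of piericidin A are lost when NADH can still be oxidized in mitochondria. RNA of the transgene itself was not analysed here.

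Macrophages that meet bacterial products make large amounts of nitric oxide, which kills microbes and also inhibits mitochondrial respiration. Nos2 encodes the inducible nitric oxide synthase, which turns arginine into nitric oxide and citrulline. Gch1 encodes the first enzyme in the synthesis of tetrahydrobiopterin, a cofactor that Nos2 protein needs, and Slc7a2 encodes a transporter that brings arginine into the cell. Ass1 and Asl encode the enzymes that rebuild arginine from citrulline, in this order. Odc1 encodes ornithine decarboxylase, which turns ornithine into putrescine, the first of the polyamines.

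The libraries held between 6950748 and 13552070 counts on genes. A gene at 3 counts or fewer in a library cannot be told apart from absence there. Values are given as CPM, which divides counts by the library total in edgeR's TMM scale, and log2 fold changes carry the standard error (SE) from edgeR's quasi-likelihood fit. Calls were made at an adjusted p (Benjamini-Hochberg, over all 11853 genes) under 0.05. The summed level of 7 macrophage markers lay between 19260 and 37710 CPM in the libraries of 8 mice and between 22560 and 27790 CPM in those of mice 496 (WT) and 503 (NDI1). The 8 libraries of mice 496 and 503 stood apart on the second principal component, between 28.1 and 72.8 against −26.3 to 13.6 in the others. Their summed level of 8 neutrophil and precursor markers was 544 to 3138 CPM, against 15.1 to 194 CPM in the other mice. Of 3 erythroid markers, 2 never exceeded 3 counts. In bulk RNA, a change in the number of cells of a type and a change of RNA per cell cannot be told apart. Results are therefore also given without these 2 mice where a call differs.

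All 6 members are protein-coding genes, placed on mm10 by the count table. Nos2 (ENSMUSG00000020826) lies at chr11:78920787-78960254 on the plus strand, Gch1 (ENSMUSG00000037580) at chr14:47153895-47189413 on the minus strand and Slc7a2 (ENSMUSG00000031596) at chr8:40862396-40922308 on the plus strand. Ass1 (ENSMUSG00000076441) lies at chr2:31470207-31520672 on the plus strand and Asl (ENSMUSG00000025533) at chr5:130011258-130025132 on the minus strand. Odc1 (ENSMUSG00000011179) lies at chr12:17544873-17551502 on the plus strand. In GENCODE M21, exons of Slc7a2 overlap those of Gm26584 on the other strand. Whether reads were counted by strand is not given in the sources used here, so reads in that stretch cannot be assigned with certainty.

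Of the 6 members, 3 matched a promoter in the RefSeq table (GRCm38.p6). They are shown because they had a match. Of these, Odc1 was called higher with piericidin A both with and without LPS in WT. Gch1 and Ass1 were among the members that rose with LPS. Each stretch holds the 171 bases from 250 to 80 bases before the RefSeq start, 5′ to 3′ on the strand of the gene, for Odc1 at chr12:17544623-17544793 (plus), for Gch1 at chr14:47189493-47189663 (minus) and for Ass1 at chr2:31470020-31470190 (plus). Capitals mark letters that match, on either strand, the letters CACGTG of the MYC-type E-box, TGACG of the core of the cAMP response element, CCAAT of the box of that name, TATAAA of the TATA box or GGGCGG of the GC box.
Odc1: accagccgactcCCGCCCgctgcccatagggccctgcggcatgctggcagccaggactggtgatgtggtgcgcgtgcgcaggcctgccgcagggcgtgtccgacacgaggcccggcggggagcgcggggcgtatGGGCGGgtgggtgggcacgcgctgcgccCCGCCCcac
Gch1: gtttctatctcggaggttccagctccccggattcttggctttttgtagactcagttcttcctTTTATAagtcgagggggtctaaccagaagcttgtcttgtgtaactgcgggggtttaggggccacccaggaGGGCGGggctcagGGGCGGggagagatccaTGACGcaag
Ass1: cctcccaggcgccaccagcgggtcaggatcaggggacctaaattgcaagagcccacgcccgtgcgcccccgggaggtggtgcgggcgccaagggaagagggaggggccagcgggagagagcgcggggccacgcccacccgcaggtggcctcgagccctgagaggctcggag
The Odc1 stretch held 3 GC boxes, which begin 238, 116 and 88 bases before the start, and no match to the other letters. The Gch1 stretch held GC boxes at 118 and 105 bases, TATA box letters at 188 bases and the core of a cAMP response element at 88 bases before the start. The Ass1 stretch held none of these letters. None of the 5 motifs overlapped another. Among the same windows of 32851 promoters, 19.6% held a GC box, 9.94% the core of a cAMP response element, 8.09% a TATA box, 23.4% a CCAAT box and 3.41% an E-box. The share of G and C was 77.2% for Odc1, 73.7% for Ass1 and 55.6% for Gch1, and the median over all these windows was 50.9%.

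Before any treatment, the members differed widely in their level per length, given here as the mean CPM of the 5 WT libraries per kilobase of the longest coding transcript in GENCODE M21. Odc1 had the highest level, at 23.9 CPM per kb, followed by Asl at 20.0, Gch1 at 9.47, Ass1 at 5.16 and Slc7a2 at 1.37. Nos2 was at the bottom, at 0.0504 CPM per kb. In WT BMDMs with LPS, Nos2 was first at 274 CPM per kb, ahead of Gch1 at 109, Slc7a2 at 67.4, Odc1 at 63.4, Ass1 at 24.6 and Asl at 16.7. The count table gives some members a longer total exon length, and with that length Slc7a2 came after Odc1 (22.8 against 54.9 CPM per kb with LPS). Asl then stood at 3.98 CPM per kb without treatment, in place of 20.0, and came after Gch1 (9.47).

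LPS raised Nos2, Gch1, Slc7a2, Ass1 and Odc1, and Asl was the member that did not pass the test. In WT BMDMs, 5 of the 6 members rose and none fell, while 62.5% of all tested genes were called in either direction. Nos2 was at 0.0815, 0.311, 0.203, 0.0795 and 0.381 CPM in the untreated WT libraries, which is 1 to 6 counts each, and at 1339, 1139, 1006, 1384 and 881 CPM with LPS. In NDI1 it was at 0.302, 0.570, 0.649, 0 and 0.286 CPM without treatment and at 859, 1641, 1338, 1394 and 820 CPM with LPS. Across all 40 libraries, the lowest Nos2 value among the 20 with LPS (555 CPM) was 377 times the highest among the 20 without (1.47 CPM). From the summed counts, Nos2 was 5128 times higher with LPS than without in WT (95% exact counting interval 3157 to 8973) and 3240 times higher in NDI1 (2177 to 5057), intervals that cover counting error only. The fitted log2 fold changes were 12.26 ± 0.47 (SE, n = 5; edgeR adjusted p = 9.0e-22) and 11.63 ± 0.45 (edgeR adjusted p = 1.6e-21).

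Slc7a2, Gch1 and Ass1 followed in the same direction, and Asl did not. Slc7a2 was at 14.8, 9.09, 10.1, 8.98 and 11.2 CPM in untreated WT and at 551, 380, 471, 603 and 661 CPM with LPS, a log2 fold change of 5.62 ± 0.31 (edgeR adjusted p = 7.1e-18). Gch1 went from 19.7, 25.2, 22.7, 26.1 and 37.6 CPM to 326, 237, 196, 372 and 385 CPM, a log2 fold change of 3.53 ± 0.25 (edgeR adjusted p = 5.4e-15). Ass1 went from 5.14, 6.72, 12.9, 7.39 and 11.6 CPM to 37.2, 28.9, 39.2, 51.5 and 51.5 CPM, a log2 fold change of 2.24 ± 0.25 (edgeR adjusted p = 5.8e-10). For these 3 genes, for Nos2 and for Odc1 the ranges untreated and with LPS alone did not overlap in either genotype. The share of all genes with no such overlap was not counted, while 62.5% of all genes were called in WT. Of the pair that rebuilds arginine, it was the first enzyme that rose. Asl, the second, was between 37.6 and 57.5 CPM in untreated WT and between 27.6 and 52.8 CPM with LPS, a log2 fold change of −0.26 ± 0.18 (edgeR adjusted p = 0.201). With the mouse as a block, a fit in which the 4 libraries of each mouse are paired, Asl was called lower (edgeR adjusted p = 0.0077), which made 6 members called in WT among 72.0% of all genes. With library totals alone, which moved the median of all genes to −0.78 in WT and −0.77 in NDI1, Asl was also called lower, at −1.02 in WT and −0.87 in NDI1 (edgeR adjusted p = 6.4e-05 and 4.1e-04), and its log2 fold change in NDI1 was otherwise −0.11 (edgeR adjusted p = 0.599).

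Odc1, the polyamine gene, also rose, from 43.4, 40.5, 81.0, 54.1 and 45.5 CPM in untreated WT to 145, 124, 168, 138 and 125 CPM with LPS (log2 fold change 1.40 ± 0.21, edgeR adjusted p = 4.4e-07). With library totals alone this log2 fold change was 0.63. In NDI1, 5 members rose with LPS, among 62.7% of all genes called, and all 5 had also risen in WT. The effect of LPS differed between the genotypes for 0 members by edgeR's test (0% of all genes), for 0 members at an unadjusted p under 0.05 and for 0 members by DESeq2. The summed neutrophil and precursor markers were also higher with LPS in each of the 5 WT and 5 NDI1 mice, and with the mouse as a block 4 of the 7 tested rose in each genotype (S100a8, S100a9, Camp and Ngp), while without it each had an edgeR adjusted p of 0.251 or more. In WT the sum was 27.6 to 110.5 CPM untreated and 54.3 to 134.5 CPM with LPS in 4 mice, and 557 and 1167 CPM in mouse 496. Without mice 496 and 503, the same 5 members were called with LPS in both genotypes.

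**Figure D1:**
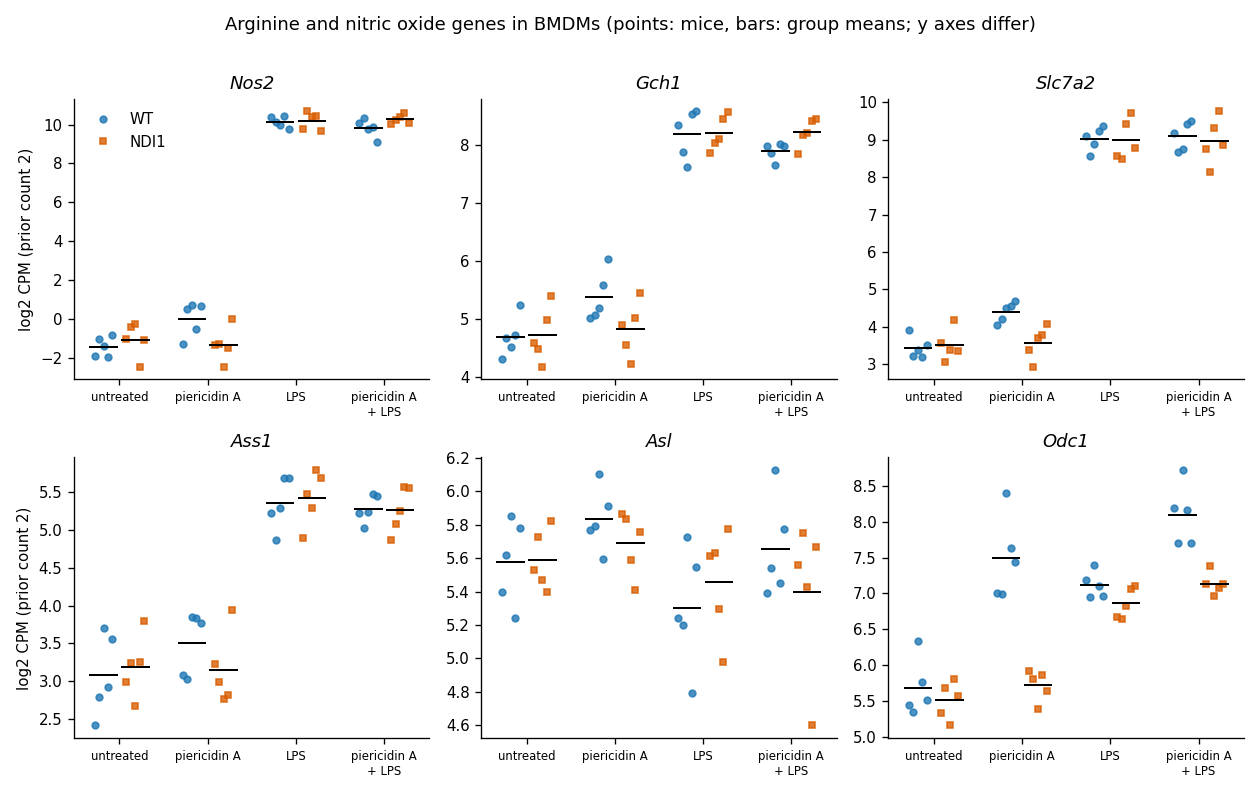
Level of the 6 members in log2 CPM (prior count 2, y axes differ between panels) for each treatment on the x axis, with circles for WT mice, squares for NDI1 mice and bars for the group means. With LPS, every library of Nos2, Gch1, Slc7a2 and Ass1 lies above every library without LPS, and Odc1 is higher in WT than in NDI1 in every library with piericidin A.

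Piericidin A alone raised Odc1, Slc7a2 and Gch1 in WT BMDMs, without LPS. In this comparison 4 of the 6 members were called higher and none lower, against 14.8% of all tested genes called in either direction. The count of 4 includes Nos2, which had 16 counts in all untreated and 63 with piericidin A and was in the test through its libraries with LPS. With a filter on only the compared libraries Nos2 was not tested, and 3 of 5 members were called, among 1489 of 11061 genes. Odc1 was at 43.4, 40.5, 81.0, 54.1 and 45.5 CPM in untreated WT and at 129, 127, 338, 199 and 174 CPM with piericidin A, a log2 fold change of 1.87 ± 0.21 (edgeR adjusted p = 8.6e-08). The 2 groups did not overlap. The rise of Odc1 within each WT mouse lay between 1.57 and 2.06 on the log2 CPM scale, so the spread between mice was small against the change. Mouse 453 had the highest Odc1 value of the 5 WT mice under each of the 4 treatments. The summed level of the neutrophil and precursor markers was also higher with piericidin A in each of the 5 WT mice, at 27.6 to 110.5 CPM untreated and 36.6 to 126 CPM with piericidin A in 4 of them and at 557 and 1798 CPM in mouse 496. Of the 7 such markers tested, 5 rose with the mouse as a block (S100a8, S100a9, Camp, Ngp and Ltf, log2 fold change 1.25 to 1.76), and without the block each of the 7 had an edgeR adjusted p of 0.386 or more. In NDI1 the sum was higher in 3 of the 5 mice and no marker was called with the block. Without mice 496 and 503, Odc1 had a log2 fold change of 1.87 (edgeR adjusted p = 1.7e-05). The part of these markers in the rise of the other members was not tested.

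The other members called with piericidin A in WT started from lower levels. Nos2 was at 0.227, 1.26, 1.47, 0.525 and 1.40 CPM, which is 63 counts in all against 16 in the untreated libraries. This is a ratio of 4.40 by summed counts (95% exact counting interval 2.51 to 8.16, counting error only) and a fitted log2 fold change of 2.09 ± 0.56 (edgeR adjusted p = 0.0097). Nos2 stayed at or under 21 counts per library, far from its level with LPS, and 3 of the 5 untreated WT libraries and 1 with piericidin A held 3 counts or fewer. The call for Nos2 was lost without mouse 453 (edgeR adjusted p = 0.0665).

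Slc7a2, the arginine transporter, was at 16.4, 18.4, 22.3, 23.4 and 25.4 CPM with piericidin A, above all 5 untreated WT libraries (log2 fold change 0.97 ± 0.27, edgeR adjusted p = 0.0116). This call was lost without mouse 496 (edgeR adjusted p = 0.0784) or mouse 520 (0.0616). Gch1 was at 32.2, 33.2, 36.5, 48.0 and 65.9 CPM, a range that overlaps the untreated one because mouse 520 was the highest in both, and its log2 fold change was 0.71 ± 0.23 (edgeR adjusted p = 0.0309). Within mice Gch1 was higher with piericidin A in each of the 5 WT mice (by 0.40 to 0.87 on the log2 CPM scale) and in each of the 5 NDI1 mice (by 0.04 to 0.31). The call for Gch1 was lost without mouse 449 (edgeR adjusted p = 0.0756), 453 (0.0576), 496 (0.130) or 520 (0.0734), without both 496 and 503 (0.143) and with library totals alone (0.0539). Ass1 (log2 fold change 0.40 ± 0.25) and Asl (0.25 ± 0.17) did not pass (edgeR adjusted p = 0.292 and 0.361). Asl was called higher as well with the mouse as a block (edgeR adjusted p = 0.0222), which made 5 members called among 34.2% of all genes.

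In NDI1 BMDMs, piericidin A called 0 of the 6 members by edgeR's test, as it called 0% of all genes, and 0 members passed an unadjusted p under 0.05 or DESeq2. Odc1 was at 40.0, 51.3, 35.6, 55.6 and 47.5 CPM in untreated NDI1 and at 60.1, 56.0, 41.5, 57.9 and 49.9 CPM with piericidin A, a log2 fold change of 0.21 ± 0.21 (edgeR adjusted p = 1). It was higher with piericidin A in each of the 5 NDI1 mice, by 0.06 to 0.59 on the log2 CPM scale. Nos2 summed to 20 counts with piericidin A and 24 without in NDI1, a ratio of 0.786 (95% exact counting interval 0.412 to 1.48). Mouse 521 held 12 of the 20 counts, and without it the fitted log2 fold change went from −0.33 to −1.34 (edgeR adjusted p = 1). The comparisons with untreated cells share the untreated libraries with those of LPS.

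The difference between the genotypes was tested directly. For Odc1 the effect of piericidin A was smaller in NDI1 than in WT by 1.66 ± 0.30 on the log2 scale (edgeR adjusted p = 0.0011), and Odc1 was the 1 member called among 1.27% of all genes. Per mouse, the log2 CPM change of Odc1 was 1.82 ± 0.20 in WT and 0.21 ± 0.22 in NDI1 (mean ± SD, n = 5 each, exact permutation test over all assignments of the 10 mice, two-sided, p = 0.00794, the smallest p this design allows). The same smallest p was found for Gch1, at 0.69 ± 0.18 in WT and 0.10 ± 0.12 in NDI1 (exact permutation test, n = 5 each). The per-mouse change also differed for Slc7a2 (0.96 ± 0.47 against 0.07 ± 0.45, exact permutation p = 0.0238) and for Ass1 (0.43 ± 0.34 against −0.04 ± 0.28, exact permutation p = 0.0317). For Nos2 the change was 1.43 ± 0.52 in WT and −0.26 ± 1.35 in NDI1 (exact permutation p = 0.0238), and this p rose to 0.0714 with a prior count of 0.5 in place of 2. Asl did not pass (exact permutation p = 0.0873). These are 6 of 12 such tests of piericidin A run over the members without and with LPS, and their p-values are not adjusted. The effect of LPS was tested in the same way (exact permutation p of 0.183 or more), and all tests were repeated with a prior count of 0.5. In edgeR's fit over all genes, Slc7a2, Gch1, Ass1 and Nos2 did not pass (edgeR adjusted p = 0.326, 0.492, 0.722 and 0.203). DESeq2 called Nos2 (adjusted p = 0.0211) beside Odc1. For Nos2 this difference rests on few counts, since 3 of 5 untreated WT and 4 of 5 NDI1 libraries with piericidin A held 3 counts or fewer, and it was not tested with a filter on only the compared libraries. With the mouse as a block, Odc1 and Slc7a2 passed (edgeR adjusted p = 1.5e-07 and 0.0114), 2 members among 8.96% of all genes. Gch1 was then at 0.0540 and Ass1 at 0.282.

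**Figure D2:**
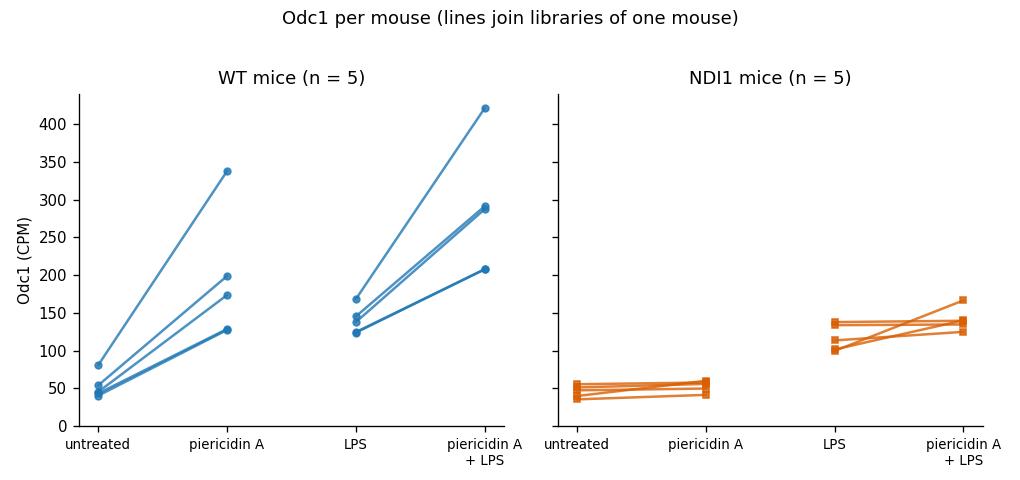
Odc1 in CPM on the y axis for each treatment on the x axis, with lines joining the libraries of one mouse. In WT the lines rise from 40.5 to 81.0 CPM untreated to 127 to 338 CPM with piericidin A, and in NDI1 they stay between 35.6 and 60.1 CPM.

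When piericidin A was given before LPS in WT, 1 of the 6 members, Odc1, was called by edgeR's test, against 16.7% of all genes. Odc1 rose from 145, 124, 168, 138 and 125 CPM with LPS to 291, 208, 421, 287 and 208 CPM with piericidin A and LPS, with no overlap (log2 fold change 1.01 ± 0.21, edgeR adjusted p = 9.3e-04). The genes of nitric oxide synthesis moved little from their LPS levels. Nos2 was at 1084, 1271, 885, 945 and 555 CPM, within or below the range with LPS alone, a log2 fold change of −0.28 ± 0.27 (edgeR adjusted p = 0.502). Gch1 was at 254, 233, 202, 260 and 253 CPM (log2 fold change −0.34 ± 0.22, edgeR adjusted p = 0.314). Slc7a2 (0.09 ± 0.25) and Ass1 (−0.09 ± 0.23) had log2 fold changes closer to 0, which did not pass either (edgeR adjusted p = 0.847 and 0.832). Asl was at 41.8, 46.5, 69.7, 43.5 and 54.5 CPM, higher than with LPS alone in each of the 5 WT mice (log2 fold change 0.35 ± 0.18, edgeR adjusted p = 0.181). Asl was called higher with the mouse as a block (edgeR adjusted p = 0.0034), so that 2 members were called among 34.5% of all genes. In this comparison too the summed neutrophil and precursor markers were higher with piericidin A in each of the 5 WT mice, at 54.3 to 134.5 CPM and 111 to 194 CPM in 4 of them and at 1167 and 3138 CPM in mouse 496. Of the 7 tested, 6 rose with the mouse as a block (log2 fold change 1.15 to 1.80), and without it each had an edgeR adjusted p of 0.425 or more. Without mice 496 and 503, Odc1 had a log2 fold change of 1.00 (edgeR adjusted p = 0.0134).

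In NDI1 BMDMs given LPS, piericidin A called 0 members by edgeR's test among 0% of all genes, with 0 at an unadjusted p under 0.05 and 0 by DESeq2. Odc1 was at 102, 99.7, 114, 134 and 138 CPM with LPS and at 140, 167, 125, 135 and 140 CPM with both, a log2 fold change of 0.27 ± 0.21, and it was higher with both in each of the 5 NDI1 mice (by 0.01 to 0.74 on the log2 CPM scale). Nos2 was at 1058, 1190, 1330, 1541 and 1087 CPM with both, in the range of LPS alone. For the difference between genotypes under LPS, 0 members passed edgeR's test, against 0.979% of all genes, with 1 member (Odc1) at an unadjusted p under 0.05 and 0 by DESeq2. The Odc1 effect was smaller in NDI1 by 0.75 ± 0.29 (edgeR adjusted p = 0.226). Odc1 (edgeR adjusted p = 0.0094) and Asl (0.0481) passed with the mouse as a block, 2 members among 9.51% of all genes. Per mouse, Odc1 changed by 0.97 ± 0.24 in WT and 0.27 ± 0.32 in NDI1 (exact permutation p = 0.0159, n = 5 each), and Asl by 0.36 ± 0.19 and −0.06 ± 0.21 (exact permutation p = 0.00794). The other 4 members had exact permutation p-values between 0.0794 (Gch1) and 0.397 (Ass1).

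**Figure D3:**
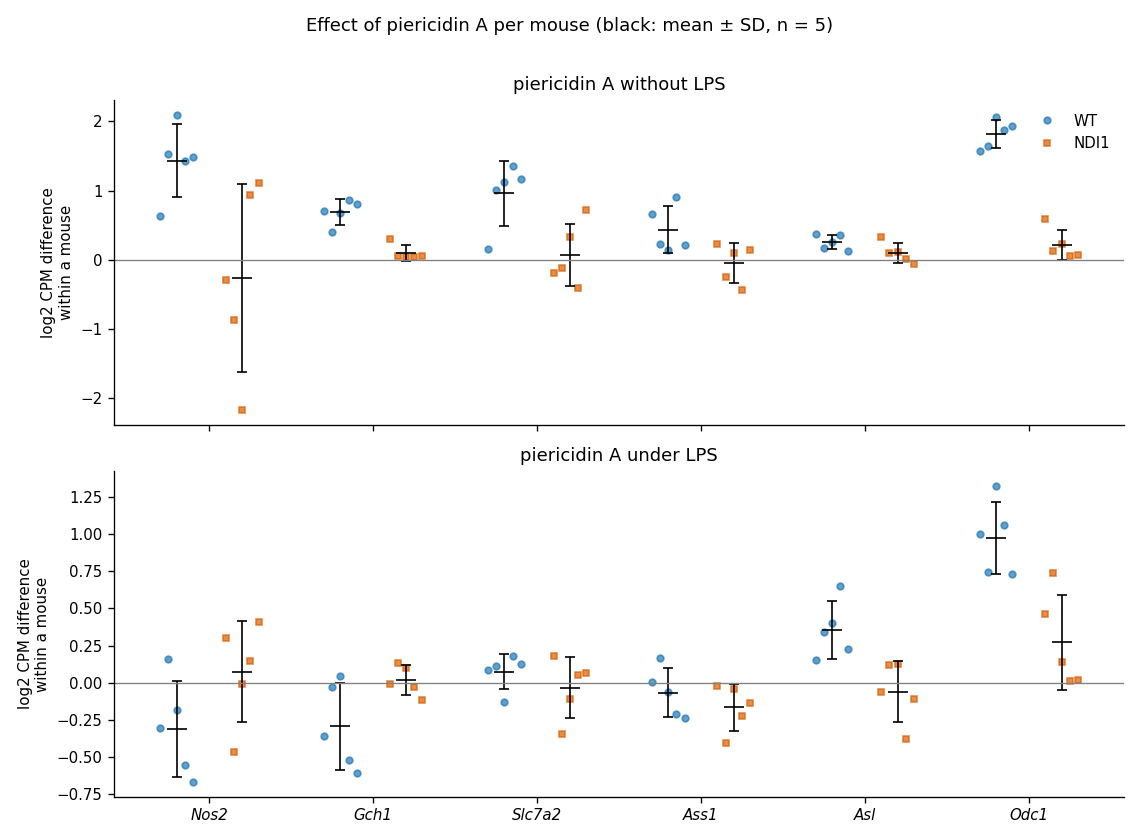
Change of log2 CPM with piericidin A within each mouse (y axis) for the 6 members (x axis), without LPS above and under LPS below, with circles for WT, squares for NDI1 and black bars for mean ± SD (n = 5). Odc1 separates the genotypes without LPS (WT 1.57 to 2.06, NDI1 0.06 to 0.59) and overlaps between them under LPS (WT 0.73 to 1.32, NDI1 0.01 to 0.74). Gch1 also separates them without LPS (WT 0.40 to 0.87, NDI1 0.04 to 0.31), and Asl under LPS (WT 0.15 to 0.65, NDI1 −0.38 to 0.13).

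The effect of piericidin A in WT was then compared between cells with and without LPS. By edgeR's test 2 of the 6 members differed, against 4.75% of all genes. The effect on Nos2 was lower under LPS by 2.36 ± 0.62 on the log2 scale (edgeR adjusted p = 0.0191) and that on Gch1 by 1.05 ± 0.32 (edgeR adjusted p = 0.0490). For Nos2 the part without LPS rests on the same 16 and 63 counts, and Nos2 was in the test through its libraries with LPS. Both calls were lost without mouse 496 (edgeR adjusted p = 0.0874 for Nos2 and 0.251 for Gch1) and without mouse 520 (0.0666 and 0.167). Nos2 was also lost without mouse 453 (0.0978), and Gch1 without mouse 447, 449, 452, 453, 460 or 503 (0.0592 to 0.129). Gch1 was lost as well with scaling by RLE factors in place of TMM, library totals alone, no filter or only the compared libraries (0.0540 to 0.0884). Without both 496 and 503, Nos2 was at 0.0734 and Gch1 at 0.261. With the mouse as a block, Gch1, Odc1, Slc7a2 and Nos2 were called (edgeR adjusted p between 4.2e-04 and 0.0082), 4 members among 17.4% of all genes, and each of these effects was lower under LPS. For Odc1 that difference was −0.85 ± 0.29 without the block (edgeR adjusted p = 0.0869), and it passed without mouse 453 (0.0199). In NDI1, 0 members differed by edgeR's test (0% of all genes), with 0 at an unadjusted p under 0.05 and 0 by DESeq2.

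Between the genotypes, Odc1 was lower in NDI1 with piericidin A, alone and with LPS. Without treatment 0 members were called by edgeR's test (0% of all genes), with 0 at an unadjusted p under 0.05 and 0 by DESeq2. With LPS alone 0 members were called by edgeR as well (0% of all genes), with 0 at an unadjusted p under 0.05 and 0 by DESeq2. With piericidin A alone 2 members were called lower in NDI1 than in WT, against 7.80% of all genes, and the call for Nos2 rests on 20 counts in NDI1 and 63 in WT. Odc1 was lower by 1.86 ± 0.21 on the log2 scale (edgeR adjusted p = 1.2e-07), and the highest NDI1 library (60.1 CPM) was under the lowest WT library (127 CPM). Nos2 was lower by 1.71 ± 0.54 (edgeR adjusted p = 0.0407), with overlapping groups of 0 to 12 counts in NDI1 and 3 to 21 counts in WT. This Nos2 call was lost without mouse 447, 452, 453, 460, 461, 503 or 520 (edgeR adjusted p between 0.0812 and 0.138), without both 496 and 503 (0.0906) and with no filter on low counts (0.0520). With a filter on only the compared libraries Nos2 was not tested, and without mouse 521 its log2 fold change was −2.64. Slc7a2 was close to the threshold (log2 fold change −0.80 ± 0.26, edgeR adjusted p = 0.0553) and passed by DESeq2 (adjusted p = 0.0295) and without mouse 503 (edgeR adjusted p = 0.0309) or 521 (0.0409), with only the compared libraries (0.0418) and with at least 10 counts in every library (0.0488), and Gch1 passed without mouse 521 (0.0340). With piericidin A and LPS, 1 member was called, against 12.0% of all genes. Odc1 was again lower in NDI1, by 1.00 ± 0.21 (edgeR adjusted p = 0.0016), and the NDI1 libraries (125 to 167 CPM) lay under the WT libraries (208 to 421 CPM).

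The members were set beside 50 other genes of arginine, nitric oxide, tetrahydrobiopterin and polyamine metabolism, of which 36 passed the filter. With LPS in WT, 10 of the 36 rose and 11 fell (median log2 fold change −0.06, and −0.01 over all genes), which is 58.3% against 62.5% of all genes called. Slc7a7, a light chain that carries cationic amino acids out of the cell, rose by 1.77 on the log2 scale (edgeR adjusted p = 5.0e-06). Of the 12 tested polyamine genes, 6 rose and 3 fell (75.0% called). Paox, which oxidizes acetylated polyamines, fell by 1.48 (edgeR adjusted p = 8.9e-05), and Srm, spermidine synthase, which acts directly after Odc1, fell by 1.06 (edgeR adjusted p = 1.3e-04). Sms, spermine synthase, was higher by 0.90 (edgeR adjusted p = 3.3e-04). Of the 5 tested genes that make or recycle tetrahydrobiopterin after Gch1, none rose and Spr, sepiapterin reductase, was lower by 0.92 (log2 fold change −0.92, edgeR adjusted p = 2.6e-06).

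Piericidin A alone raised 6 of the 36 genes in WT and lowered 1, with a median log2 fold change of 0.14. This is 19.4% of them, against 14.8% of all genes, and with the mouse as a block 8 rose and 2 fell, 27.8% against 34.2% of all genes. Slc7a1, the constitutive arginine transporter, was at 25.0, 25.5, 19.4, 23.4 and 40.4 CPM untreated and at 87.8, 63.6, 77.8, 75.0 and 103 CPM with piericidin A, with no overlap (log2 fold change 1.61 ± 0.23, edgeR adjusted p = 2.6e-06). Its NDI1 values were 25.9, 20.6, 20.1, 25.8 and 39.8 CPM untreated and 28.3, 25.5, 27.2, 30.6 and 48.2 CPM with piericidin A. Azin1, the antizyme inhibitor that protects Odc1 protein from degradation, rose by 1.14 ± 0.18 (edgeR adjusted p = 2.6e-05). Slc3a2, the heavy chain of several amino acid transporters, rose by 0.93 ± 0.15 (edgeR adjusted p = 2.1e-05) and Ddah2, which belongs to a family that breaks down methylated arginines, by 0.82 ± 0.26 (edgeR adjusted p = 0.0330). The call for Ddah2 was lost without mouse 449, 453, 496 or 520 (edgeR adjusted p between 0.0778 and 0.226), without both 496 and 503 (0.0677), and with library totals alone, no filter or only the compared libraries (0.0595 to 0.0832). Amd1, which makes the aminopropyl donor for spermidine, fell by 0.79 ± 0.16 (edgeR adjusted p = 7.7e-04). In NDI1, 0 of the 36 were called by edgeR's test, as were 0% of all genes.

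Without LPS, the effect of piericidin A differed between genotypes for 3 of the 36 genes (8.33%, against 1.27% of all genes). They were Slc7a1 (−1.33, edgeR adjusted p = 0.0173), Azin1 (−1.02, 0.0288) and Slc3a2 (−0.81, 0.0298). With the mouse as a block 6 of the 36 were called (16.7%, against 8.96% of all genes). These 3 were then at an edgeR adjusted p of 3.4e-05 or less. Without the block, Slc7a1 was lost without mouse 449 (0.0737), 496 (0.0661) or 503 (0.0546), and without both 496 and 503 (0.154). Azin1 was lost without mouse 447, 449, 461, 496, 503, 520 or 521 (edgeR adjusted p between 0.0683 and 0.124). Slc3a2 was lost without mouse 447, 449, 460, 461, 496, 503, 520 or 521 (0.0570 to 0.114), and with library totals alone (0.0518) or no filter (0.0543). Without both 496 and 503, Azin1 was at 0.182 and Slc3a2 at 0.200. Under LPS the effect differed between genotypes for 0 of the 36 genes, against 0.979% of all genes. With the mouse as a block these were 5 of the 36 (13.9%), against 9.51% of all genes. Under LPS, piericidin A in WT raised 4 of the 36 genes and lowered 2, which is 16.7%, the same share as of all genes. With the mouse as a block 12 rose and 2 fell, 38.9% against 34.5% of all genes. Slc3a2 rose by 0.77 (edgeR adjusted p = 3.2e-04), Prmt9, a protein arginine methyltransferase, by 0.76 (4.0e-04) and Sat1, which acetylates polyamines, by 0.76 (0.0148). Nos1ap, an adaptor of neuronal nitric oxide synthase, rose by 1.69 (edgeR adjusted p = 0.0259) from at most 0.823 CPM with LPS, with 3.29 and 2.13 CPM in mice 496 and 520 and at most 0.804 CPM in the other 3. With LPS alone 3 of the 5 WT libraries of Nos1ap held 3 counts or fewer, and with a filter on only the compared libraries it was not tested. Slc7a7 fell by 0.90 (edgeR adjusted p = 0.0358). The calls for Slc7a7, Sat1 and Nos1ap were lost without mouse 496 (0.130, 0.0734 and 0.128) or mouse 520 (0.165, 0.0959 and 0.161), and those for Slc7a7 and Nos1ap also without mouse 449 (0.0768 and 0.0625). Sat1 and Nos1ap were also lost without both 496 and 503 (0.0851 and 0.140). With only the compared libraries Slc7a7 (0.0663) and Sat1 (0.0530) were lost, and with no filter Nos1ap (0.0552).

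**Figure D4:**
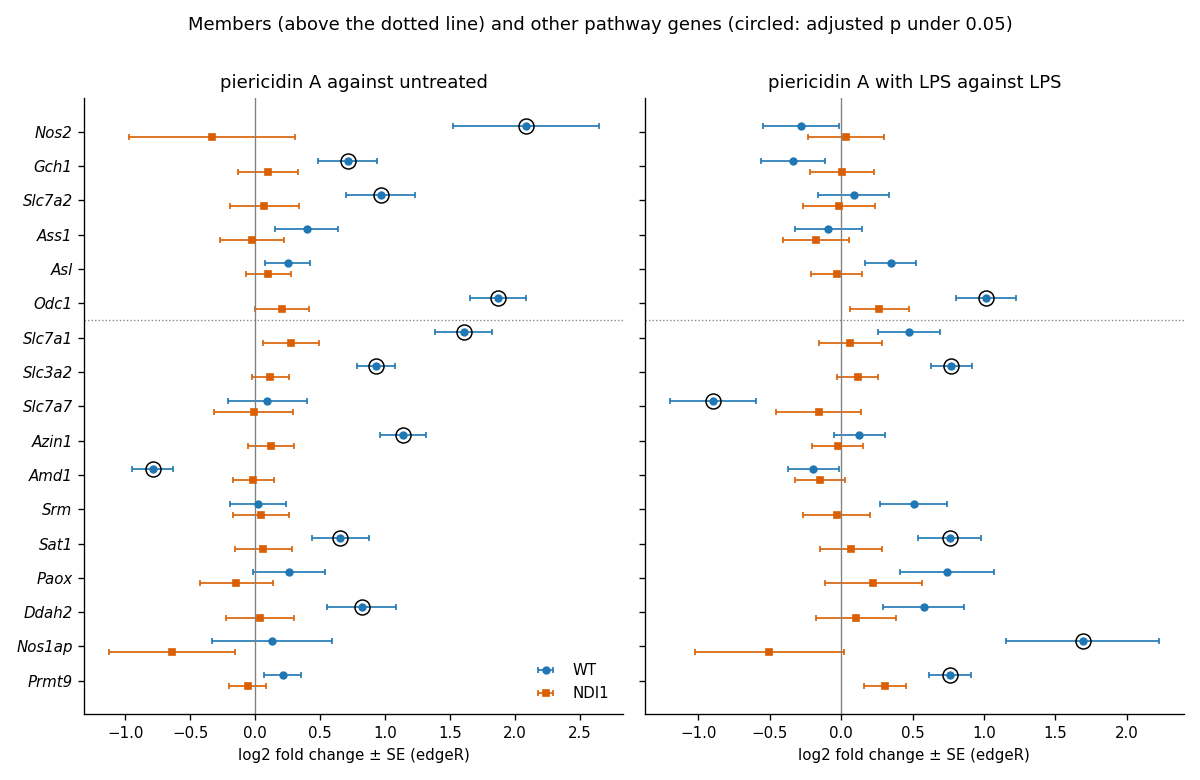
Log2 fold change with SE (x axis) of the 6 members and 11 other pathway genes (y axis) for piericidin A without LPS (left) and under LPS (right), with circles for WT, squares for NDI1 and black rings for an edgeR adjusted p under 0.05. The ringed values are all of WT. Without LPS they lie between −0.79 (Amd1) and 2.09 (Nos2). The Nos2 value rests on 16 counts untreated and 63 with piericidin A, and the next highest is Odc1 at 1.87.

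The genes whose log2 CPM followed each member most closely over the 40 libraries were listed by Pearson's r, as a description. All libraries share the large effect of LPS, so that many genes reach a high r. Nos2 was closest to Rnf114 (r = 0.991), Rab11fip1 (0.991) and Il15 (0.990), Gch1 to Car13 (0.994), Sap30 (0.993) and Slfn2 (0.992), and Slc7a2 to Ppp1r15b (0.994), Clic4 (0.991) and March5 (0.990). Ass1 was closest to Ppp2ca (0.976), Gch1 (0.974) and Anxa7 (0.970). Odc1 stood apart from this set, with Scpep1 (0.928), Dusp5 (0.914) and Rilpl1 (0.905), as did Asl, with Dnpep (0.907), Polr1c (0.861) and Fh1 (0.856). Over deviations from the group means, which remove the treatments, Odc1 was closest to Eef1g (0.799), Tmem160 (0.742) and Rps2 (0.734), and Nos2 to Plekha4 (0.658), Ero1l (0.631) and Gpr132 (0.563). Among the members, deviations of Gch1 and Ass1 had an r of 0.740 and those of Gch1 and Nos2 an r of 0.215.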

How the data were processed

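RNA-seq counts were analysed for 40 libraries of BMDMs from 10 mice. The authors deposited counts of reads per gene without normalization, for which, per the labels and the study's methods, bcl2fastq, Trimmomatic, STAR (mm10) and HTSeq were used. The annotation release is not given in the sources used here. Samples were grouped by genotype and treatment from their labels. 1 further column of counts, for reads not assigned to a library, was not used. Of 43430 identifiers, 42462 matched a symbol.

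The model was fitted in edgeR 4.0.16 under R 4.3.3 (filterByExpr, TMM, one mean per group, glmQLFit and glmQLFTest). Adjusted p-values are those of the Benjamini-Hochberg method over 11853 genes. The SE is the size of a log2 fold change divided by the square root of F. Log2 CPM used a prior count of 2. Library totals lay between 6950748 and 13552070 counts, and floors and intervals cover counting error only, since PCR copies of a molecule cannot be recognised without molecular identifiers. No 2 replicates agreed within sampling noise (lowest chi-square per degree of freedom 9.35, 80 pairs). The number that the labels of 4 libraries share is the mouse. Deviations from group means correlated with a mean r of 0.453 within a mouse (0.0995 to 0.769, 60 pairs) and −0.107 between mice (240 pairs), so each comparison within mice was repeated with a block for the mouse.

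Per-mouse changes were compared by two-sided exact permutation tests. The 15 comparisons were recomputed with RLE factors, library totals alone, DESeq2 1.42.0, other filters, only the compared libraries and without each mouse. Leaving out mice 496 and 503 together was chosen after seeing the data. The scripts were tested on simulated data. The members and gene lists were chosen with earlier results of these data known. Of the 8 genes chosen, 2 are not reported here. The text names the other 6, called members, the 3 genes most like each, and other pathway genes past the threshold, taken by size: for LPS in WT those that moved by 1 or more on the log2 scale, and for piericidin A and the difference of its effect at most 5 in each comparison. Sms and Spr were named after their values were seen.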

Additional observations from a re-analysis of the deposited data

Results flagged for a closer look

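Asl in NDI1 BMDMs with piericidin A and LPS had 1 library far from the others of its group. Mouse 503 was at 4.60 on the log2 CPM scale (24.0 CPM), against 42.8 to 53.8 CPM in the other 4 mice, and its gap to the nearest of them was 0.716 of the whole range. This is 1 of 48 sets of 5 values that were checked, and chance alone is expected to give about 1 in 20. Mouse 503 is 1 of the 2 mice whose libraries held more neutrophil marker RNA, and the part of this in the Asl value was not tested.

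The effect of piericidin A without LPS on Odc1 differed between the genotypes, by −1.66 on the log2 scale (NDI1 minus WT, edgeR adjusted p = 0.0011). Per mouse, all 5 WT mice lay above all 5 NDI1 mice. The same held for Gch1 without LPS and for Asl under LPS. The share of all genes with such a separation was not counted.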

How the results depend on the processing

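With piericidin A in WT, 2 to 4 members were called without 1 mouse at a time, and a filter of at least 10 counts in every library removed Nos2. Piericidin A under LPS in WT gave 2 members with the mouse as a block. For NDI1 against WT with piericidin A, 1 member was called without a filter and without mice 496 and 503, and 1 to 4 without 1 mouse. The difference of the piericidin A effect without LPS gave 2 members with the block and 2 by DESeq2, and that under LPS gave 2 with the block. The WT change of the effect by LPS gave 1 member with RLE factors, library totals alone, no filter, at least 10 counts in every library or only the compared libraries, 4 with the block, 0 without mice 496 and 503, and 0 to 2 without 1 mouse. The per-mouse difference for Nos2 without LPS was −2.28 with a prior count of 0.5 and no longer passed (exact permutation p = 0.0714). Beyond the calls already given with the block, it changed none of a member. The other 246 recomputed counts and per-mouse values kept their call or stayed within 1.5 times.

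Library totals alone moved the median of all genes to −0.78 with LPS in WT and −0.77 in NDI1, from −0.01, and to −0.13 with piericidin A in WT. TMM factors lay between 1.13 and 1.37 without LPS and between 0.696 and 0.899 with LPS. On that scale Odc1 had a log2 fold change of 0.63 with LPS in WT. Odc1 kept its calls for piericidin A in WT in all 18 alternatives. Nos2 values without LPS are limited by counts, and each mouse gave 1 library per treatment.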

Other observations

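Markers of other cell types were also summed per library. Apart from the neutrophil list, the libraries of mice 496 and 503 held 370 to 1460 CPM of 5 alternative activation markers, against 143 to 333 CPM in the other 8 mice. For 4 fibroblast markers the sums were 9.86 to 109 CPM against 0.774 to 20.6 CPM, for 5 dendritic cell markers 9.14 to 48.3 CPM against 3.10 to 18.2 CPM, and for 3 B cell markers 0.636 to 11.6 CPM against 0 to 2.00 CPM. For 4 T cell markers the sums were 7.18 to 12.2 CPM against 2.23 to 14.4 CPM. The ranges overlapped for the fibroblast, dendritic cell, B cell and T cell markers. For 4 mast cell and basophil markers the sums were 0.397 to 6.58 CPM against 0 to 0.640 CPM, ranges that also overlap. Erythroid markers stayed at or under 0.481 CPM.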
